A study of Homo sapiens with 12 samples.

Results

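The genes described here encode the subunits of gamma-secretase and the membrane proteases that cut its substrates first. They were taken from a fixed list of 10 genes, namely NCSTN, PSEN2, APH1A, APH1B, PSENEN, ADAM10, ADAM17, ADAM9, BACE1 and BACE2, and matched to array probes through the platform annotation. Of the 10 genes, 9 had a probe and together they had 15 probes, against 11075 genes with a measured probe in the whole series. BACE1 was paired with no probe and is not analysed here. All 15 probes passed the filter on dim probes, and 12 of them were detected on all 12 arrays, where detected means a detection p-value under 0.01.

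Gamma-secretase is an intramembrane protease of 4 kinds of subunit. A presenilin holds the catalytic aspartates, nicastrin (NCSTN) carries the large glycosylated domain that receives substrates, APH1 proteins scaffold the assembly, and PEN-2 (PSENEN) is needed for the presenilin to mature. Its substrates, among them Notch receptors and the amyloid precursor protein, must first lose most of their ectodomain. ADAM10, ADAM17 and ADAM9 are metalloproteases that make that cut, and BACE1 and BACE2 are aspartyl proteases that do so at other sites.

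The study compared HEK001, a human keratinocyte line, and HEK293, a human embryonic kidney line, in 4 groups of 3 arrays. The groups were HEK001 with the NCSTN hairpin (A08), HEK001 with the luciferase control hairpin (pLKO), HEK293 with the NCSTN hairpin and HEK293 with the control hairpin. Per the labels, the cells of all 12 samples had been infected with hairpin lentivirus for 24 h with polybrene at 10 µg/mL and kept under puromycin for about 2 weeks, at 2 µg/mL for HEK293 and at a labelled 0.5 per mL, with an incomplete unit, for HEK001. HEK293 grew in serum medium (10% FBS), HEK001 in serum-free keratinocyte medium with EGF and pituitary extract. The knockdown rests on 1 hairpin. The labels call the reagent an siRNA in some fields and a lentiviral hairpin in the protocol, and the source name gives HEK001 for all 12 samples, where titles and cell line entries give HEK293 for 6. Nothing says whether replicates were separate cultures, so every p-value below is set against a spread between arrays that may be technical alone.

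The hairpin's target is printed because the whole knockdown depends on it. It is 21 bases long, and the capitals mark target bases 14 to 20, which would pair with bases 2 to 8 (the seed) of a guide strand that is its exact antisense, printed on the second line.
Hairpin target: gctctactgaataCTCTACAt
Antisense of the target: aTGTAGAGtattcagtagagc
Among 2370 mature human miRNA names in RefSeq (GRCh38.p14), 0 carried the same seed. Where the target lies in the transcript was not analysed here.

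The line labels were checked against marker genes. Of 13 listed keratinocyte markers 8 had a probe. All 8, KRT5 and KRT14 among them, were detected on every HEK001 array of both arms. None of the 8 was detected on any HEK293 pLKO array, and LAMB3 alone was detected on the 3 HEK293 A08 arrays. Their summed signal ran from 41984 to 48631 in HEK001 A08, from 32354 to 45868 in HEK001 pLKO, from 45.4 to 74.0 in HEK293 A08 and from 24.8 to 57.2 in HEK293 pLKO. Of 11 markers listed for HEK293, 5 had a probe. NEFL, VIM, CDH2 and EYA1 were detected on all HEK293 arrays and LHX1 on none, while VIM and LHX1 were detected on all HEK001 arrays. Their summed signal ran from 3230 to 3916 in HEK001 A08, from 4073 to 6434 in HEK001 pLKO, from 11052 to 14067 in HEK293 A08 and from 3280 to 5114 in HEK293 pLKO, and its part in the results was not tested. With the hairpin, 5 of the 8 keratinocyte markers were called higher in HEK001 and 1 of 8 in HEK293, against 7.16% and 10.9% of all genes. Of the 5 HEK293 markers, 2 were called lower in HEK001 and 1 higher in HEK293, against 6.66% and 10.9% of all genes. Between 14818 and 16333 probes were detected per array, and replicates of a group correlated across probes at Pearson's r between 0.9885 and 0.9936.

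NCSTN was the only measured member with a called hairpin difference (limma adjusted p under 0.05). On the normalized log2 scale its probe read 6.56, 7.01 and 6.86 in HEK001 A08, against 9.95, 9.98 and 9.80 in HEK001 pLKO. In HEK293 it read 7.75, 7.79 and 7.91 with A08, against 9.69, 9.85 and 9.83 with pLKO. Every A08 array lay below every pLKO array of its line, and even the highest HEK001 A08 array lay below the lowest HEK293 A08 array. NCSTN fell in both lines, with a log2 difference of −3.10 in HEK001 (SE 0.119, limma adjusted p = 4.79e-08) and −1.98 in HEK293 (SE 0.119, limma adjusted p = 4.34e-07). The level with the hairpin was 11.7% of the HEK001 control level (95% interval of the fit 9.75% to 14.0%) and 25.4% of the HEK293 control level (21.2% to 30.4%).

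The 2 lines started from control levels whose ranges overlap and ended apart. In control cells the NCSTN mean was 9.91 ± 0.10 in HEK001 and 9.79 ± 0.09 in HEK293 (SD, n = 3 each), a difference of 0.12 (SE 0.119, limma adjusted p = 0.403, 95% interval −0.14 to 0.38). With each array scaled to a common median instead of quantile normalization, that difference was 0.51 and passed the threshold (limma adjusted p = 0.0375). That median lies among undetected probes, so differences in array brightness can remain. Median deposited signals ran from 7.65 to 10.6 per array, and upper quartiles from 41.8 to 79.9. Upper quartiles of HEK001 pLKO arrays spanned 48.5 to 79.9, overlapping the HEK293 pLKO span of 41.8 to 67.5. Median signals of these control arrays overlapped as well, with 7.65 to 10.6 against 7.78 to 9.88. What part brightness has in the 0.51 was not tested. The fall was larger in HEK001, with a difference of the 2 effects of −1.12 (SE 0.169, limma adjusted p = 0.000819). From high to low, the order of the group means was HEK001 pLKO, HEK293 pLKO, HEK293 A08 and HEK001 A08, and only the pair of controls overlapped. The deposited signals, before any further correction, were 83.9, 131 and 89.7 in HEK001 A08, against 1454, 1078 and 812 in HEK001 pLKO. They were 173, 198 and 191 in HEK293 A08, against 803, 569 and 926 in HEK293 pLKO. Each of these signals is a mean over 21 to 36 beads, with a bead standard error of 3.35% to 8.42% of the signal. In bulk RNA, fewer cells that express NCSTN and less NCSTN RNA per cell cannot be told apart.

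**Figure D1:**
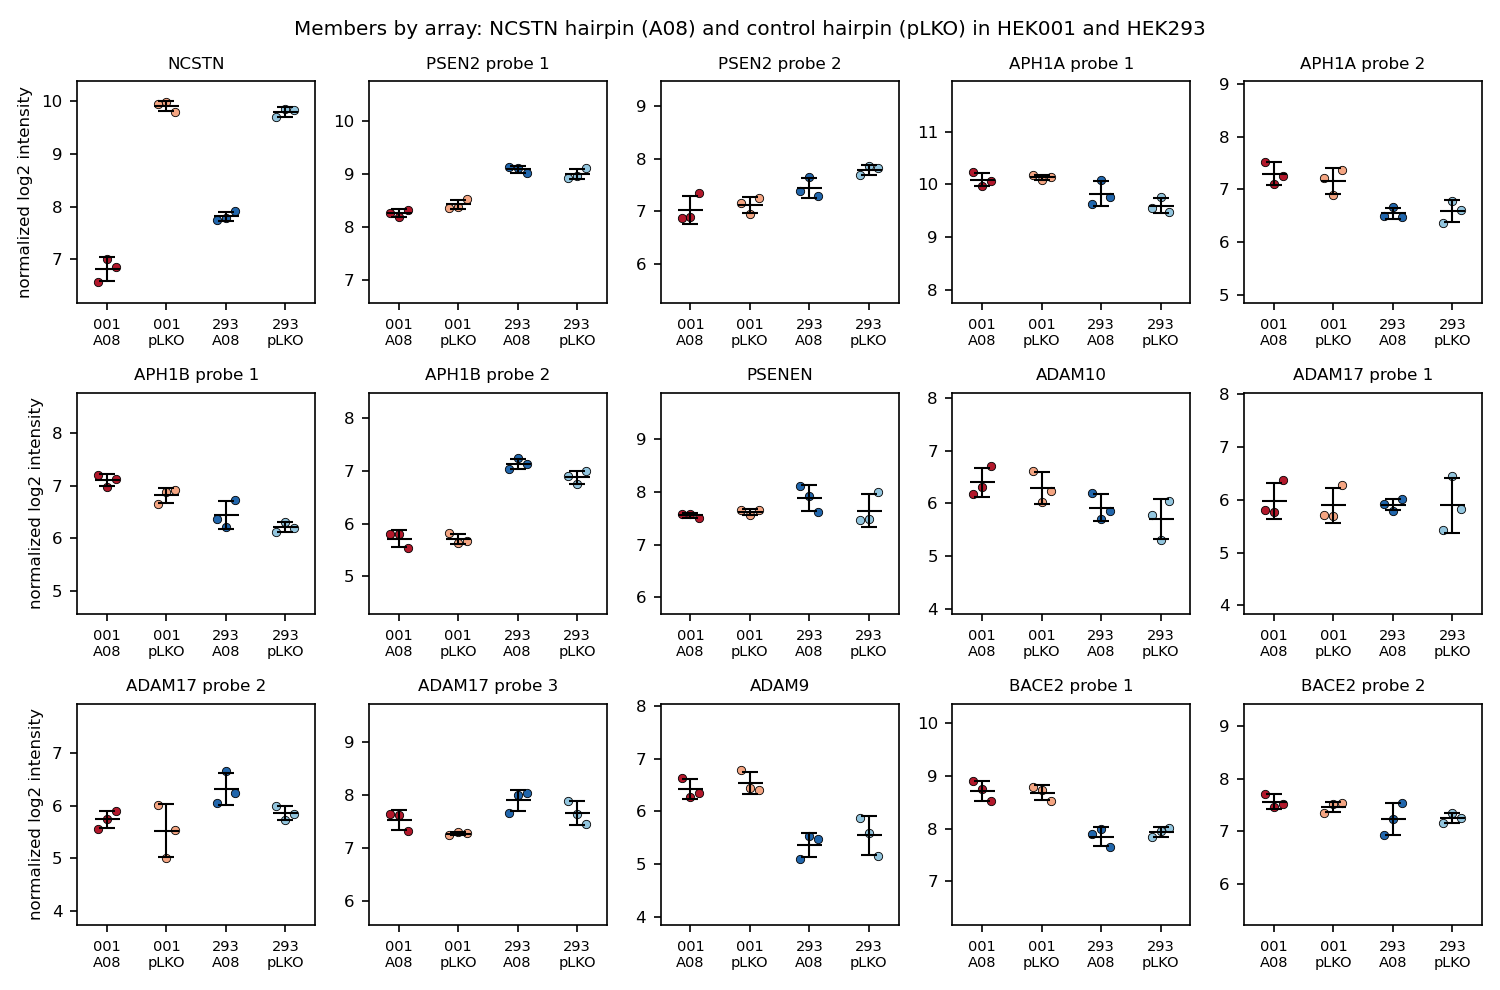
Normalized log2 intensity (y axis, every panel spanning the same number of log2 units) of each of the 15 member probes on the 12 arrays, by group (x axis: HEK001 A08, HEK001 pLKO, HEK293 A08, HEK293 pLKO). Points are arrays, the horizontal mark is the mean and the bars are 1 SD (n = 3). NCSTN drops with A08 in both lines, to 6.81 in HEK001 and 7.82 in HEK293, while in panels such as PSEN2 probe 1 and ADAM9 the lines lie farther apart than the arms.

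Outside NCSTN, none of the other 14 probes passed the threshold in either line. Over all 18152 probes tested, 12.3% were called in HEK001 (6.34% higher and 5.99% lower) and 20.5% in HEK293 (9.89% higher and 10.6% lower), at a limma adjusted p under 0.05. With any 1 of the 6 HEK001 arrays left out, 1388 to 1640 probes were called in HEK001, against 2239 with all arrays. The lowest counts were 1473 and 1388, without pLKO replicate 2 and 3. At an unadjusted p under 0.05, 1 of the 14 passed in HEK001 and 2 in HEK293. Their log2 differences ran from −0.17 to 0.29 in HEK001, with a median of 0.06, and from −0.35 to 0.46 in HEK293, with a median of 0.15. The median over all probes was −0.01 in HEK001 and 0.01 in HEK293. Differences were above 0 for 9 of the 14 in each line. The arms did not overlap for 3 of the 14 probes in HEK001 and 3 in HEK293, against 32% and 36.4% of all probes.

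These misses of the threshold come with limits on the size of any change on the normalized scale. Each of the 14 unadjusted 95% intervals stayed within a 2-fold change in both lines. Within a 1.41-fold change stayed 8 of the 14 intervals in HEK001 and 5 in HEK293. The interval reaching farthest was that of an ADAM17 probe in HEK293, up to 1.91-fold. The values include an offset of 16, which shrinks differences of dim probes, so their intervals do not bound the change in RNA. Over the alternatives other than leaving out 1 array, HEK293 estimates ran from 0.40 to 0.60 for ADAM17 probe 2. They ran from 0.14 to 0.31 for ADAM10 and from −0.26 to −0.15 for ADAM9. No test of the difference between the lines' effects passed for any of the 14, against 19.4% of all probes, 10% higher and 9.35% lower (limma adjusted p between 0.209 and 0.962; 0 passed at an unadjusted p under 0.05).

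**Figure D2:**
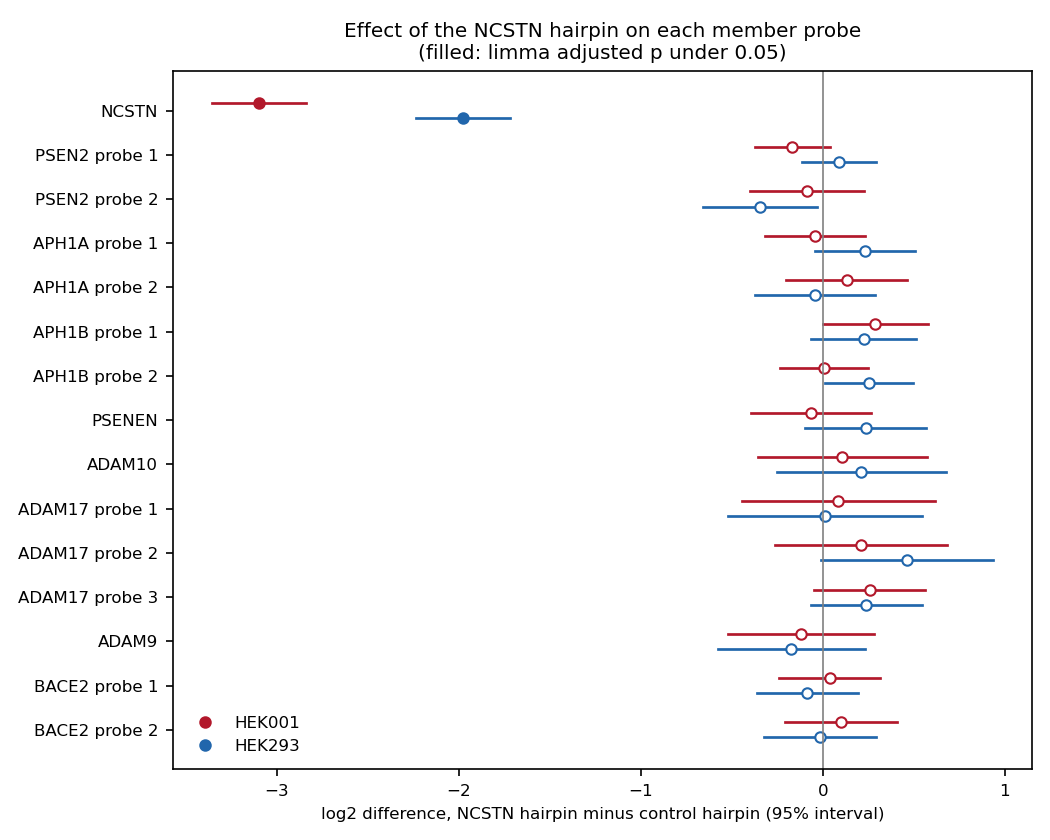
Log2 difference between the NCSTN hairpin and the control hairpin (x axis) for each member probe (rows), in HEK001 and in HEK293. Points are limma estimates, bars are unadjusted 95% intervals, and filled points have an adjusted p under 0.05. NCSTN lies at −3.10 and −1.98, and every other interval stays between −1 and 1.

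PSEN2, one of the presenilins that can form the catalytic core, had 2 probes. Probe 1 (ILMN_1714417) read 8.27, 8.18 and 8.33 in HEK001 A08, against 8.37, 8.39 and 8.52 in HEK001 pLKO. It read 9.13, 9.12 and 9.02 in HEK293 A08, against 8.92, 8.97 and 9.11 in HEK293 pLKO. The HEK001 arms did not overlap but lay close together, and the HEK293 arms overlapped. The hairpin difference was −0.17 in HEK001 (SE 0.0948, limma adjusted p = 0.291) and 0.09 in HEK293 (SE 0.0948, limma adjusted p = 0.565). Probe 2 (ILMN_2404512) averaged 7.03 ± 0.27 in HEK001 A08 and 7.12 ± 0.15 in HEK001 pLKO, and 7.44 ± 0.19 in HEK293 A08 and 7.79 ± 0.10 in HEK293 pLKO (SD, n = 3 each). Its HEK293 difference, −0.35 (SE 0.144, limma adjusted p = 0.113), was 1 of the 2 there with an unadjusted p under 0.05. The 2 PSEN2 probes thus had opposite signs in HEK293, and neither passed.

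APH1A and APH1B encode alternative scaffold subunits, of which a complex holds one. APH1A probe 1 (ILMN_1658472) averaged 10.09 ± 0.13 in HEK001 A08 and 10.13 ± 0.04 in HEK001 pLKO, and 9.83 ± 0.24 in HEK293 A08 and 9.59 ± 0.14 in HEK293 pLKO. Probe 2 (ILMN_2398388) averaged 7.30 ± 0.22 in HEK001 A08 and 7.16 ± 0.25 in HEK001 pLKO, and 6.55 ± 0.10 in HEK293 A08 and 6.59 ± 0.21 in HEK293 pLKO (SD, n = 3 each). All arms overlapped, and the 4 APH1A differences lay between −0.04 and 0.23. Both probes are annotated to the same transcript.

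APH1B showed the 2 unadjusted p-values under 0.05 that pointed upward. Probe 1 (ILMN_1767816) read 7.20, 6.98 and 7.13 in HEK001 A08, against 6.66, 6.87 and 6.91 in HEK001 pLKO. It read 6.37, 6.22 and 6.73 in HEK293 A08, against 6.13, 6.32 and 6.20 in HEK293 pLKO. The HEK001 arms were separate and the HEK293 arms were not. Its differences were 0.29 in HEK001 (SE 0.133, limma adjusted p = 0.183) and 0.23 in HEK293 (limma adjusted p = 0.271). Probe 2 (ILMN_1862217) read 5.80, 5.81 and 5.53 in HEK001 A08, against 5.82, 5.64 and 5.67 in HEK001 pLKO. It read 7.03, 7.23 and 7.12 in HEK293 A08, against 6.90, 6.75 and 6.99 in HEK293 pLKO. Here the HEK293 arms were separate, at a difference of 0.25 (SE 0.112, limma adjusted p = 0.136), and HEK001 stood at 0.01.

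PSENEN averaged 7.56 ± 0.04 in HEK001 A08 and 7.62 ± 0.06 in HEK001 pLKO, and 7.88 ± 0.25 in HEK293 A08 and 7.65 ± 0.31 in HEK293 pLKO (SD, n = 3 each). The HEK293 arrays spread from 7.62 to 8.11 with A08 and from 7.46 to 8.00 with pLKO. The differences were −0.06 in HEK001 (limma adjusted p = 0.847) and 0.24 in HEK293 (limma adjusted p = 0.318), and all 4 groups overlapped with their neighbours in level.

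Among the sheddases, ADAM10, the main Notch and amyloid precursor protein alpha-cleaving enzyme, lay near background in HEK293. It read 6.18, 6.31 and 6.71 in HEK001 A08, against 6.62, 6.02 and 6.24 in HEK001 pLKO. In HEK293 it read 6.19, 5.70 and 5.86 with A08, against 5.78, 5.29 and 6.04 with pLKO, where 1 of the 3 pLKO arrays was not detected. Arms overlapped in both lines, with differences of 0.11 (SE 0.214, limma adjusted p = 0.811) in HEK001 and 0.21 (SE 0.214, limma adjusted p = 0.546) in HEK293.

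ADAM17, which releases TNF and EGF receptor ligands, had 3 probes. All 6 of its differences were above 0, from 0.09 to 0.26 in HEK001 and from 0.01 to 0.46 in HEK293, and none passed. The brightest, probe 3 (ILMN_2121068), read 7.65, 7.63 and 7.31 in HEK001 A08, against 7.24, 7.29 and 7.29 in HEK001 pLKO. Its arms were separate there by a narrow gap, at a difference of 0.26 (SE 0.141, limma adjusted p = 0.267). In HEK293 the same probe averaged 7.90 ± 0.21 with A08 and 7.66 ± 0.23 with pLKO (SD, n = 3 each). Probe 2 (ILMN_1908488) gave the highest difference of any member in HEK293, 0.46 (SE 0.219, limma adjusted p = 0.163), from 6.06, 6.66 and 6.24 with A08, against 5.99, 5.73 and 5.84 with pLKO. This probe is dim, and 1 of the 3 HEK001 pLKO arrays did not detect it. Probe 1 (ILMN_1765779) ranged from 5.42 to 6.45 among HEK293 pLKO arrays alone and carried the largest standard error of the 15 probes (SE 0.245).

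ADAM9 and BACE2 showed no called hairpin difference either. ADAM9, a metalloprotease of the same family, read 6.63, 6.28 and 6.36 in HEK001 A08, against 6.79, 6.44 and 6.40 in HEK001 pLKO. In HEK293 it read 5.11, 5.52 and 5.48 with A08, detected on 1 of 3 arrays, against 5.88, 5.59 and 5.15 with pLKO, detected on 2 of 3. The arms overlapped in both lines, at −0.12 in HEK001 and −0.17 in HEK293 (limma adjusted p = 0.746 and 0.573). BACE2, an aspartyl protease related to beta-secretase, had 2 probes with differences of 0.04 and 0.10 in HEK001 and of −0.09 and −0.02 in HEK293 (limma adjusted p between 0.707 and 0.956), and its arms overlapped for both probes in both lines.

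More member probes differed between the lines than between the hairpins. With the control hairpin, 10 of the 15 probes differed between HEK001 and HEK293, 6 higher and 4 lower in HEK001, against 67.9% of all probes (31.2% higher and 36.7% lower; limma adjusted p under 0.05). The groups did not overlap for 9 of the 15 probes, against 70.7% of all probes, so these shares are near the background. With median scaling, the median over all probes moved from −0.05 to 0.11 and the share of calls that were higher in HEK001 from 46.0% to 56.5%. The lines were grown in different media with different puromycin doses, and line and medium cannot be told apart.

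Higher in HEK001 were ADAM9, BACE2 probe 1, APH1A, APH1B probe 1 and ADAM10. ADAM9 was 2.00-fold higher in HEK001 (log2 1.00, SE 0.186, limma adjusted p = 0.000355). The lowest HEK001 pLKO array, at 6.40, lay above the highest HEK293 pLKO array, at 5.88. Only 2 of 3 HEK293 pLKO arrays detected ADAM9, so the fold is set against values near background that include the offset of 16. BACE2 probe 1 (ILMN_1669323) read 8.79, 8.74 and 8.52 in HEK001 pLKO, against 7.84, 7.95 and 8.02 in HEK293 pLKO, a 1.68-fold difference (log2 0.75, SE 0.128, limma adjusted p = 0.000178). BACE2 probe 2 (ILMN_2326712), which is annotated to another transcript variant, gave 0.21 (SE 0.142, limma adjusted p = 0.208). The APH1A probes gave 0.54 and 0.57, so 1.45-fold and 1.49-fold (limma adjusted p = 0.00214 and 0.00475). For ADAM10 the difference was 0.59 (SE 0.214, limma adjusted p = 0.027) with overlapping groups. It did not pass without HEK001 pLKO replicate 1 (0.42), without HEK293 pLKO replicate 2 (0.38) or with all probes kept (limma adjusted p = 0.0674).

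Lower in HEK001 were both PSEN2 probes, APH1B probe 2 and ADAM17 probe 3. The PSEN2 difference was −0.58 on probe 1 (limma adjusted p = 0.000127) and −0.67 on probe 2 (limma adjusted p = 0.00107), which is 0.671 and 0.628 of the HEK293 level. Neither PSEN2 probe passed with median scaling (−0.27 and −0.48, limma adjusted p = 0.282 and 0.0516), which can leave differences in array brightness. ADAM17 probe 3 differed by −0.39 (limma adjusted p = 0.0262) and did not pass without any 1 of HEK001 pLKO replicate 1 (−0.37), 2 (−0.40) or 3 (−0.40) or of HEK293 pLKO replicate 1 (−0.27), with median scaling (−0.21) or with all probes kept. ADAM17 probe 2, at −0.33, passed only without HEK001 pLKO replicate 1 (−0.57, limma adjusted p = 0.0229). NCSTN, PSENEN (−0.02, limma adjusted p = 0.897) and ADAM17 probe 1 (0.00, limma adjusted p = 0.998) did not pass.

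The 2 APH1B probes went opposite ways between the lines. Probe 1 averaged 6.81 ± 0.14 in HEK001 pLKO and 6.21 ± 0.10 in HEK293 pLKO, 1.51-fold higher in HEK001 (log2 0.60, SE 0.133, limma adjusted p = 0.0014). Probe 2 averaged 5.71 ± 0.10 in HEK001 pLKO and 6.88 ± 0.12 in HEK293 pLKO, 0.444 of the HEK293 level (log2 −1.17, SE 0.112, limma adjusted p = 8.06e-07; SD, n = 3 each). For each probe the control groups were separate. The probes are annotated to different accessions, the RefSeq transcript NM_031301 and the cDNA clone AK057677, so no single direction between the lines can be given for APH1B.

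**Figure D3:**
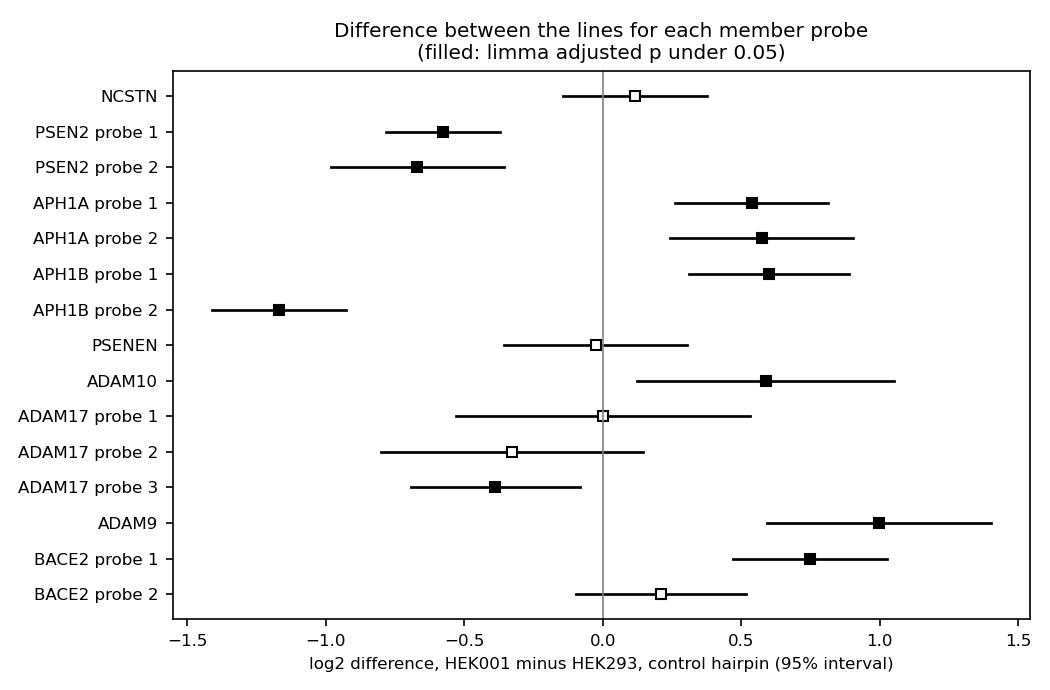
Log2 difference between HEK001 and HEK293 with the control hairpin (x axis) for each member probe (rows). Squares are limma estimates, bars are unadjusted 95% intervals, and filled squares have an adjusted p under 0.05. ADAM9 lies farthest to the right, at 1.00, and APH1B probe 2 farthest to the left, at −1.17, with APH1B probe 1 on the other side at 0.60.

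No other member probe was among those most like NCSTN across the arrays. Over the 12 arrays, the Pearson correlation of the other 14 probes with NCSTN lay between −0.49 (APH1B probe 1) and 0.41 (PSEN2 probe 2). Among 14410 probes of single genes, the 5 that correlated most were those of H2AZ1 (r = 0.98), the methionine salvage enzyme gene ENOPH1 (0.96), MTFR2 (0.96), CIAO2A (0.95) and AUNIP (0.94). The lowest were those of DNASE1L1 (−0.95), H2BC5 (−0.94), RHOB (−0.94), ARMCX3 (−0.94) and TRAPPC14 (−0.92). These correlations describe 12 points, which share a hairpin and a line within each of the 4 groups.

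H2AZ1, a histone variant gene, read 11.97, 12.05 and 11.94 in HEK001 A08, against 13.39, 13.40 and 13.43 in HEK001 pLKO. In HEK293 it read 12.59, 12.40 and 12.54 with A08, against 13.61, 13.64 and 13.66 with pLKO. Every A08 array lay below every pLKO array, and the differences were −1.42 in HEK001 and −1.13 in HEK293. The genes named here were picked by their correlation with NCSTN on these same arrays. A split between the arms therefore comes with the choice and is no separate result. AUNIP differed by −1.49 in HEK001 and −1.53 in HEK293, and ENOPH1 by −1.17 and −1.09. H2BC5, a clustered histone gene, was higher by 1.22 in HEK001 and 1.28 in HEK293, with a second probe at 1.39 and 1.91. DNASE1L1 was higher by 1.02 in HEK001 and 0.30 in HEK293, where the call was lost in 5 of 6 fits with 1 array left out. Its second probe, at 0.41 and 0.34, passed in neither line. TRAPPC14 passed in HEK001 (0.66) and not in HEK293 (0.30), and so did a second ARMCX3 probe (0.87 and 0.39). CIAO2A in HEK001 (−0.34) did not pass without A08 replicate 1 or 2 or pLKO replicate 2 or 3 (−0.34 to −0.32), with median scaling or with the replicate block, and its second probe passed in neither line.

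**Figure D4:**
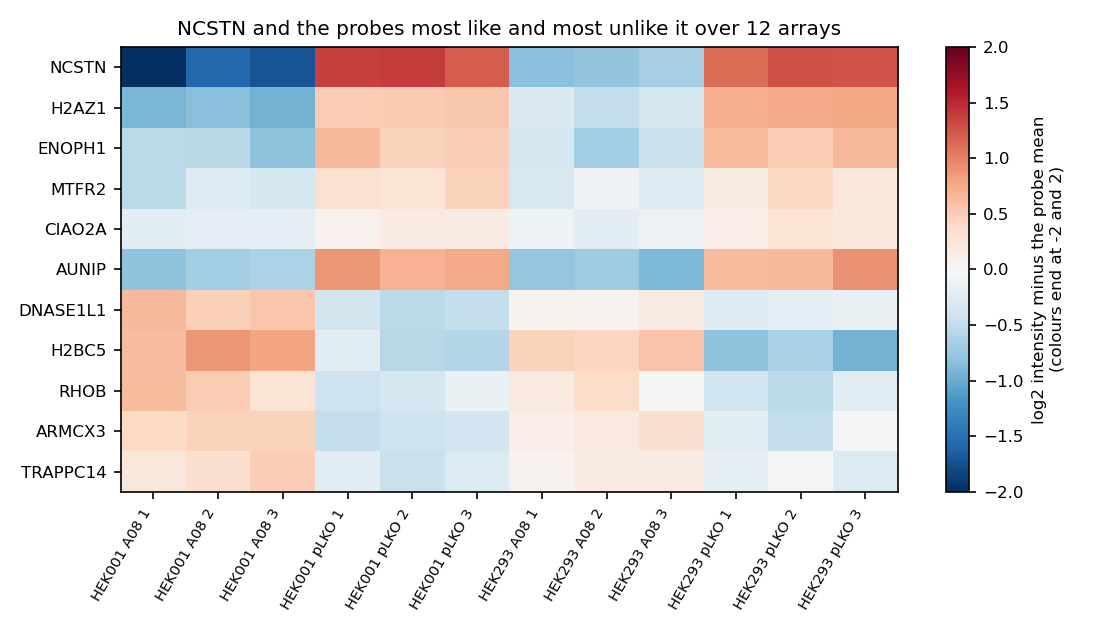
Log2 intensity minus the probe's own mean over the 12 arrays (colour, ends at −2 and 2) for NCSTN and for the 10 probes named as most and least correlated with it (rows), by array (columns). H2AZ1, at r = 0.98, is low on all 6 A08 arrays and high on all 6 pLKO arrays, and H2BC5, at r = −0.94, is the reverse.

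The 4 lists of related genes were set beside the members, and the shares called in them are to be read against those of all genes. Over 1 probe per gene, 13.8% of 11075 genes were called in HEK001 (7.16% higher and 6.66% lower) and 23.2% in HEK293 (10.9% higher and 12.3% lower). Of 11 tested genes of gamma-secretase trafficking and modulation (16 listed), 1 was higher and 0 lower in HEK001 (median 0.15), and 2 were higher and 1 lower in HEK293 (median 0.07). Over all genes the median was −0.01 in HEK001 and 0.01 in HEK293. SYVN1, an endoplasmic reticulum ubiquitin ligase, rose by 0.39 in HEK001 (SE 0.0876, limma adjusted p = 0.0124) and stood at −0.03 in HEK293, and its HEK001 call was lost with median scaling (0.32). In HEK293, ERLIN2 rose by 0.68, FBXW7, which recognises the Notch intracellular domain for degradation, rose by 0.45, and PLD1, a phospholipase detected there on 1 of 3 A08 arrays, fell by 0.71. Of 2 further ERLIN2 probes, 1 rose by 0.56 and the other stood at 0.03, while 2 further FBXW7 probes, at −0.16 and 0.15, did not pass. The ERLIN2 and FBXW7 calls were lost with median scaling (0.64 and 0.42), and the PLD1 call without A08 replicate 1 (−0.68) or 2 (−0.59) or pLKO replicate 3 (−0.53) and with all probes kept.

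Of 10 tested genes of other intramembrane or membrane-embedded proteases (13 listed), 0 were higher and 1 lower in HEK001 (median −0.08), and 2 were higher and 0 lower in HEK293 (median 0.15). RCE1, the protease that trims prenylated CAAX proteins, read 8.42, 8.53 and 8.35 in HEK293 A08, against 7.90, 7.73 and 7.58 in HEK293 pLKO. All A08 arrays were above all pLKO arrays, and RCE1 rose by 0.70 (SE 0.104, limma adjusted p = 0.000556), with a second probe at 0.52 (limma adjusted p = 0.0442). In HEK001 the main RCE1 probe stood at −0.33 (limma adjusted p = 0.0594), and the second at 0.28. PARL, a mitochondrial rhomboid protease, rose by 0.39 in HEK293, with another probe also called, at 0.37, and the remaining one, at 0.25, not. The call of the main probe was lost without any 1 of A08 replicate 1 (0.39), 2 (0.37) or 3 (0.41) or of pLKO replicate 1 (0.33) or 3 (0.34), with median scaling (0.43) and with the HEK293 arrays fitted alone. MBTPS2, the site-2 protease that activates SREBP, fell by 0.38 in HEK001, and the call was lost without any 1 of the 6 HEK001 arrays (−0.43 to −0.32), with median scaling, with the authors' values, with all probes kept and with the replicate block.

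Only 6 of 19 listed ADAM and membrane metalloproteinase genes outside the members could be tested, of which 0 were higher and 1 lower in each line (median −0.07 in HEK001 and −0.15 in HEK293). ADAM19 read 8.40, 8.41 and 8.02 in HEK001 A08, against 8.90, 9.09 and 9.13 in HEK001 pLKO. It fell by 0.76 there (SE 0.157, limma adjusted p = 0.0075) with separate arms, and stood at −0.25 in HEK293 (limma adjusted p = 0.3). ADAM11, an ADAM without protease activity, fell by 0.96 in HEK293 (SE 0.205, limma adjusted p = 0.00581), where 1 of 3 A08 arrays and 3 of 3 pLKO arrays detected it, and no HEK001 array did. With the authors' log2 values ADAM11 did not pass (−0.85, limma adjusted p = 0.0551).

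All 30 genes listed as regulators of ADAM10, ADAM17 and BACE1 were tested. They are called regulators below, though ST6GAL1 among them is a substrate of BACE1. In HEK001 3 were higher and 3 lower (median 0.09), and in HEK293 2 were higher and 7 lower (median −0.06). ST6GAL1, a sialyltransferase that BACE1 can cleave, went opposite ways. It read 7.84, 7.97 and 7.85 in HEK001 A08, against 7.21, 7.19 and 7.09 in HEK001 pLKO. In HEK293 it read 7.21, 7.49 and 7.21 with A08, against 7.99, 7.95 and 8.15 with pLKO. ST6GAL1 thus rose by 0.72 in HEK001 (SE 0.106, limma adjusted p = 0.00106) and fell by 0.73 in HEK293 (SE 0.106, limma adjusted p = 0.000457), with no overlap of arms in either line.

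In HEK293, RHBDF1 and TSPAN33 fell and PCSK6 rose. RHBDF1, an inactive rhomboid that escorts ADAM17 from the endoplasmic reticulum, read 8.02, 7.72 and 7.48 in A08, against 8.35, 8.61 and 8.55 in pLKO, and fell by 0.77 (SE 0.147, limma adjusted p = 0.00302). TSPAN33, a tetraspanin that binds ADAM10, fell by 0.64 (limma adjusted p = 0.00725; −0.63 with median scaling, which did not pass). PCSK6, a proprotein convertase, averaged 6.87 ± 0.11 in HEK293 A08 and 5.96 ± 0.13 in HEK293 pLKO (SD, n = 3 each), with separate arms. It rose by 0.91 (SE 0.114, limma adjusted p = 0.000158), but 2 other PCSK6 probes stood at 0.06 and 0.11 and did not pass, and no HEK001 array detected the main one.

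In HEK001, the convertase gene FURIN, whose product removes the prodomains of ADAM10 and ADAM17, was detected on 3 of 3 A08 arrays and 0 of 3 pLKO arrays, and was at least 1.37-fold higher (limma adjusted p = 0.0232). That call was lost without A08 replicate 2 or 3 or pLKO replicate 2 or 3 (log2 0.64 to 0.77), and with all probes kept. TIMP3, an inhibitor of ADAM17, rose by 0.63 in HEK001 (SE 0.142, limma adjusted p = 0.0125) and stood at 0.37 in HEK293 (limma adjusted p = 0.0843). Its HEK001 call was lost without A08 replicate 3 (0.51) or pLKO replicate 2 (0.55) and with median scaling (0.62). TSPAN15, another ADAM10-binding tetraspanin, was detected on 0 of 3 A08 and 2 of 3 pLKO arrays of HEK001 and was at least 1.05-fold lower (limma adjusted p = 0.0351). It did not pass without A08 replicate 1, 2 or 3 or pLKO replicate 1 or 3 (log2 −0.77 to −0.58), with median scaling, with the authors' values, without background correction or with all probes kept.

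SFRP1, a secreted Wnt antagonist reported to inhibit ADAM10, was chosen after its values were seen, as the listed gene called in the same direction in both lines. It read 9.84, 9.95 and 9.98 in HEK001 A08, against 10.61, 10.52 and 10.42 in HEK001 pLKO. It read 5.90, 6.03 and 6.26 in HEK293 A08, against 6.57, 6.57 and 6.73 in HEK293 pLKO. The arms were separate in both lines. SFRP1 fell by 0.59 in HEK001 (limma adjusted p = 0.00414) and by 0.56 in HEK293 (limma adjusted p = 0.0033), and the calls were lost with median scaling (−0.66 and −0.56, limma adjusted p = 0.0645 and 0.117).

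The effects of the hairpin on these genes were also compared between the lines, where 21.8% of all genes were called (11.6% higher and 10.2% lower in HEK001). Called were 1 higher and 0 lower of the 11 trafficking genes, 0 higher and 2 lower of the 10 proteases, 1 higher and 0 lower of the 6 metalloproteinases and 3 higher and 1 lower of the 30 regulators. Between the control lines 71.7% of all genes were called, 32.7% higher and 39% lower in HEK001. Of the lists, 3 trafficking genes were higher and 4 lower, 3 intramembrane proteases higher and 5 lower, 4 metalloproteinases higher and 2 lower, and 13 regulators higher and 11 lower.

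**Figure D5:**
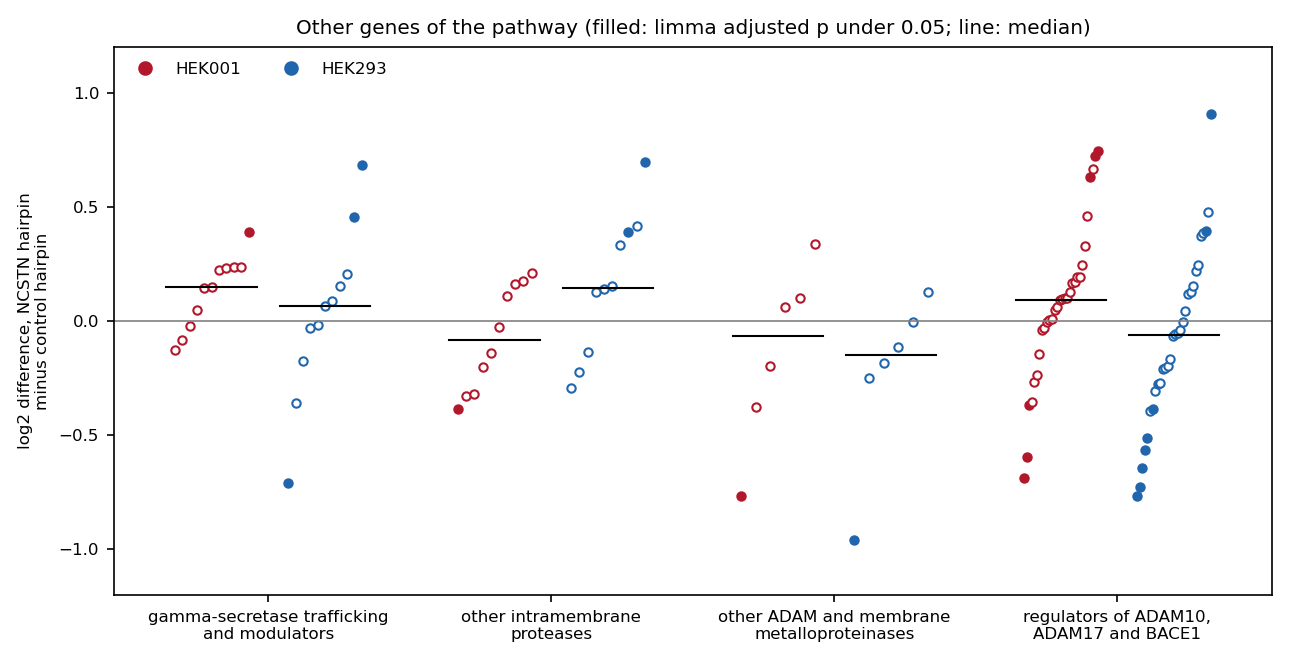
Log2 difference between the NCSTN hairpin and the control hairpin (y axis) of each tested gene of 4 lists of related genes (x axis), in HEK001 and in HEK293. Points are genes, filled where the limma adjusted p is under 0.05, and the line is the list's median. The medians stay between −0.15 and 0.15, and most points are open.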

How the data were processed

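RNA of 12 samples was measured on Illumina BeadChips. Per the file headers, the authors' deposited scanner table gives, for each of 47318 probes, the mean signal as a linear intensity, the number of beads (a count), the standard error of the signal over beads and the p-value of detection. Background had been subtracted from the deposited intensity, since 27.07% to 29.12% of values per array lie below 0, and arrays had not been normalized. The authors' deposited log2 table holds 21270 probes, those that reach detection at 0.05 on 4 or more arrays. GenomeStudio 2010 and R 3.0.2 are listed, without a role, per the submitters' processing notes.

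Here, signals were corrected by normexp with a background inferred from detection, raised by an offset of 16, quantile normalized and put on the log2 scale (limma's neqc). A probe was kept if detected (p under 0.01) on 3 or more of the 12 arrays, which left 18152. Genes came from the platform annotation, which names 1 gene for 16040 probes and several for 3, and 31275 are unnamed here. Symbols were updated by gene identifier through RefSeq (GRCh38.p14), which held 16030 of the 16040.

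A mean per group was fitted with limma 3.58.1 in R 4.3.3, with 8 residual and 12.6 total degrees of freedom, and p-values were adjusted by Benjamini-Hochberg over all kept probes. The fit was tested on simulated data. Differences are A08 minus pLKO, or HEK001 minus HEK293. Where no array of 1 group detected a probe, the fold is a lower bound against the higher of the probe's own value and the lowest detected value of each array. In lists, the probe with the highest mean stands for a gene. The number of arrays limits the precision.

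The members and lists were chosen with earlier results of these data known. Every member probe is described. Named besides are the 5 probes of single genes correlating most and least with NCSTN, and up to 4 called genes per list and line by size. Alternatives changed the background correction, normalization, source table, filter, probe rule, arrays fitted, replicate block and each array left out. The replicate numbers were checked and did not pair the arrays.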

Additional observations from a re-analysis of the deposited data

Results flagged for a closer look

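The effect of the hairpin differed between the lines for NCSTN and for 8 genes of the 4 lists of related genes, by limma's test of the difference of the effects (HEK001 minus HEK293, log2, over all probes). For NCSTN the difference was −1.12 (adjusted p = 0.000819), from −3.10 in HEK001 and −1.98 in HEK293. ST6GAL1 had the largest difference of the 8, 1.45 (adjusted p = 6.28e-05), with 0.72 in HEK001 and −0.73 in HEK293. ZMPSTE24, named after its values were seen, differed by −0.54 (adjusted p = 0.0325), and its alternatives were not run.

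RCE1 differed by −1.02 (adjusted p = 0.000622), with −0.33 in HEK001 and 0.70 in HEK293, and its second probe by −0.25 (adjusted p = 0.517). PCSK6 differed by −0.86 (adjusted p = 0.00315), where HEK001 detected it on no array, and RHBDF1 differed by 0.93 (adjusted p = 0.00848). The PCSK6 and RHBDF1 differences did not pass with median scaling (−0.76 and 0.84), nor did PCSK6 with the authors' values (−0.69).

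FURIN differed by 0.95 (adjusted p = 0.0263), ADAM11 by 1.02 (adjusted p = 0.0274) and SYVN1 by 0.42 (adjusted p = 0.0323). No HEK001 pLKO array detected FURIN, so its 0.95 is a fitted value against signals not above background and no measured size, and the same holds for ADAM11 and PCSK6 in both HEK001 arms. FURIN did not pass without HEK001 A08 replicate 3, HEK001 pLKO replicate 3 or HEK293 pLKO replicate 3 (0.85 to 0.86), or with all probes kept (adjusted p = 0.0619). ADAM11, detected on no HEK001 array, did not pass without HEK001 A08 replicate 1, HEK001 pLKO replicate 2 or 3, HEK293 A08 replicate 1 or 3, or HEK293 pLKO replicate 2 or 3 (0.86 to 1.01), with the authors' values (1.14, adjusted p = 0.0734) or with all probes kept (adjusted p = 0.0657). SYVN1 did not pass with any 1 of the 3 HEK001 A08, 3 HEK001 pLKO, HEK293 A08 replicates 2 and 3 or HEK293 pLKO replicates 1 and 3 left out (0.37 to 0.44), with median scaling (0.33, adjusted p = 0.627), with the authors' values (0.41, adjusted p = 0.0524) or with the replicate block (adjusted p = 0.0787).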

How the results depend on the processing

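NCSTN kept its direction and its call in both lines under every alternative run, from −3.20 to −2.98 in HEK001 and from −2.03 to −1.94 in HEK293 with 1 array left out. NCSTN was also the only member probe called for the hairpin in either line, and for the difference of the effects, under each of them. With median scaling the counts of probes called were 664 in HEK001, 1141 in HEK293 and 1021 for the difference of the effects, against 2239, 3728 and 3520, and NCSTN differed between the control lines by 0.51. Median scaling rests on a median among undetected probes, so differences in array brightness can remain. Whether calls lost or gained with it, that of NCSTN between the control lines among them, reflect that was not tested. With 1 probe per gene, 8046 genes differed between the lines, against 12332 probes, where fewer features were tested. With 1 array left out, between 1388 and 1640 probes were called in HEK001. Of 830 repeats over the other 14 member probes, 818 stayed on the same side of the threshold. Calls were lost in 11 and gained in 1, all 12 between the lines. No called difference reversed its sign, but 49 of the 818 changed sign without a call in either fit. Deviations of same-numbered replicates from their group means correlated at −0.04 to 0.07, and not every array correlated best with its own number, so the numbers give no pairing. With the replicate block 1578 probes were called in HEK001, 3211 in HEK293, 2810 for the difference and 12259 between the lines. Unless a value shows it, the cause of a change was not tested. The BeadChip block was not run, as the table names no BeadChip. ADAM10, ADAM9, ADAM17 probe 1, ADAM17 probe 2 and, in HEK001, APH1B probe 2 lay near background on some arrays, which limits what could be seen for them.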
